A study of Mus musculus with 7 samples.

Results

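The EGF receptor ligands and receptors were followed here as 9 genes, chosen by name, of the 53465 genes in the count table. They were 5 ligand genes (Egf, Hbegf, Btc, Tgfa and Areg) and 4 receptor genes (Egfr, Erbb2, Erbb3 and Erbb4). Bulk RNA sequencing of renal tissue had been done in 4 MRL/lpr mice given AZD1152 and in 3 MRL/lpr mice given vehicle, with 1 library per mouse. Mice of the MRL/lpr strain carry a mutation of the death receptor gene Fas and develop lupus with kidney inflammation of their own accord, and this background was common to both groups. AZD1152 (barasertib) is converted in the body to an inhibitor of Aurora kinase B, an enzyme that cells need to segregate chromosomes and divide. Age, dose and schedule were not given in the labels, and no healthy strain was part of the comparison. The comparison asked how transcripts of this signalling family differed in lupus-prone kidneys with the drug.

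EGF family ligands are made as membrane-bound precursors that proteases release, and they bind receptor tyrosine kinases that act as pairs and signal mainly through ERK and PI3 kinase. EGFR binds EGF, TGF-alpha and amphiregulin, ERBB4 also binds neuregulins, ERBB2 has no known ligand, and ERBB3 binds neuregulins but has weak kinase activity. The kidney is a main site of Egf expression, in the thick ascending limb and the distal convoluted tubule. The released growth factor acts in tubular repair and in magnesium reabsorption, and low urinary EGF is a known marker of chronic tubular damage. HB-EGF, TGF-alpha and amphiregulin are known as ligands induced in injured epithelium and in leukocytes.

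The promoters of Egf, the most abundant transcript of the family, and of Egfr, the gene that differed between the groups, are shown as the 250 bases before the transcription start, 5′ to 3′, from RefSeq (GRCm38.p6). Capitals mark CG pairs.
Egf: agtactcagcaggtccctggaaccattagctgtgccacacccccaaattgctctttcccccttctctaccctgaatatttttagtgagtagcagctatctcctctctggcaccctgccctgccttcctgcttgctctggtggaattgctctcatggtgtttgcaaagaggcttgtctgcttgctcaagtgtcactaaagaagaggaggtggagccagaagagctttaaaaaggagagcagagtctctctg
Egfr: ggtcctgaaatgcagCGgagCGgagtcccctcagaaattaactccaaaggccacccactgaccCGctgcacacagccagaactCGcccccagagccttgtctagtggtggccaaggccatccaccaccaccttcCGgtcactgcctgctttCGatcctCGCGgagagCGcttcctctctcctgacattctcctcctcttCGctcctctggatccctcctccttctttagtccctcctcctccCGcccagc
The Egf window lies on the minus strand at chr3:129755323-129755572 and the Egfr window on the plus strand at chr11:16751953-16752202. The Egf window held 0 CG pairs, as did 7.87% of 32851 RefSeq promoter windows of the same length, and the Egfr window held 11, against a median of 6 over all windows. The other 5 members in the table held 4 to 19. Both strands were searched for 4 motifs, and matches of different motifs could overlap. The TATA box, spelled TATAAA, occurs in 12.4% of all windows, the CCAAT box in 33.8%, the GC box, spelled GGGCGG, in 32.7%, and the AP-1 site, spelled TGANTCA, in 6.75%. The Egfr window held 1 GC box, on the reverse strand, starting 9 bases before the start, and the Egf window held no match to any, as in 34.5% of all windows.

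Levels can be compared between genes only per length, so CPM (counts scaled to the library total and by TMM factors) were divided by the exon length of each gene, in kb. On this scale Egf stood far above the rest of the family. It had 172 CPM per kb in AZD1152 kidneys and 142 CPM per kb in vehicle kidneys, and by CPM per kb it was number 245 of the 53360 genes with a length over all libraries. Erbb3 and Erbb2 followed, with 27.1 and 22.0 CPM per kb in AZD1152 kidneys and 22.3 and 18.3 CPM per kb in vehicle kidneys. Egfr, the receptor of Egf itself, came after them with 6.40 CPM per kb in AZD1152 kidneys and 5.10 CPM per kb in vehicle kidneys. Erbb4, Hbegf, Btc and Tgfa lay lower, and Areg was close to 0. Along this order the ranges over 7 libraries did not overlap between Egf and Erbb3, between Erbb2 and Egfr, or between Tgfa and Areg. The other neighbours overlapped in range, although the higher gene was above the lower one in all 7 libraries for each of them except Hbegf and Btc, where it was above in 6 of 7. With the length of the longest coding transcript in place of all exons, an alternative added after the data were seen, Hbegf and Erbb4 changed places. Egf stayed first, but its mean over all libraries was 376 CPM per kb with that length, against 159 with all exons. Its rank of 245 holds for all exons, and by CPM alone it was number 32 of 53465 genes.

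**Figure D1:**
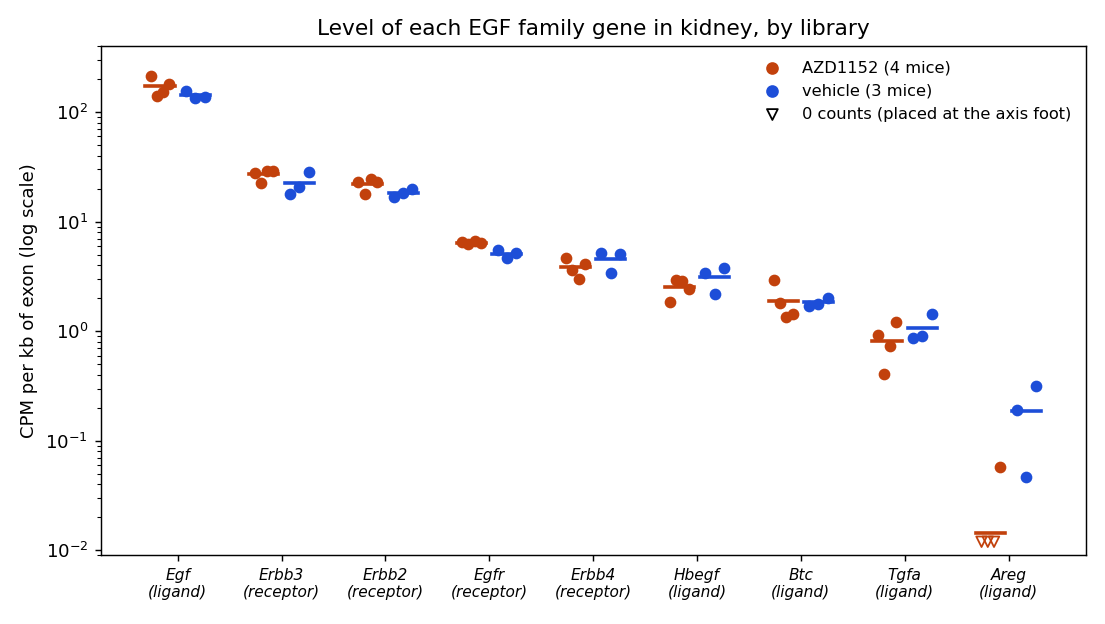
Level of the 9 genes in each library as CPM per kb of exon on a log axis, in falling order, with AZD1152 kidneys in orange on the left and vehicle kidneys in blue on the right of each gene. Short bars are group means, open triangles are libraries with 0 counts, and Egf stands above all others while Areg has 3 AZD1152 libraries at 0.

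Of the summed ligand level per kb, Egf made up 97.0% ± 0.414 in AZD1152 kidneys (SD, n = 4) and 95.8% ± 0.913 in vehicle kidneys (SD, n = 3). Hbegf made up 1.495% ± 0.525 in AZD1152 kidneys and 2.09% ± 0.522 in vehicle kidneys. The ligand pool, at the level of RNA, was thus nearly all Egf in both groups. Of the summed receptor level per kb, Erbb3 made up 45.6% ± 0.850 in AZD1152 kidneys and 44.03% ± 4.64 in vehicle kidneys, and Erbb2 37.0% ± 1.29 in AZD1152 kidneys and 36.6% ± 2.41 in vehicle kidneys. Egfr made up 10.9% ± 1.10 in AZD1152 kidneys and 10.3% ± 1.71 in vehicle kidneys. Erbb4 made up 6.51% ± 1.27 in AZD1152 kidneys and 9.05% ± 2.16 in vehicle kidneys. All 4 receptor shares overlapped between the groups.

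Of the 9 genes, 8 passed the filter on low counts and entered the test, and 1 of them, Egfr, was called, which is 12.5%, beside 7.83% of all 15774 genes tested. The test was edgeR's quasi-likelihood test with Benjamini-Hochberg adjustment over those 15774 genes and a threshold of 0.05, and 3.02% of the genes were called higher and 4.81% lower. Of the calls 38.5% were higher with TMM and 13.6% with total counts. Groups did not overlap in CPM for 1 of the 8, Egfr again, beside 22.8% of all genes. At an unadjusted p under 0.05, edgeR gave 2 members (Egfr and Erbb2), beside 24.8% of all genes. The median log2 fold change of the 8 was 0.15, beside -6.09e-04 over all genes tested. With 8 genes tested, these shares rest on 1 or 2 genes and are not read as particular to the family. In bulk tissue, fewer cells of a type and less RNA per cell cannot be told apart.

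**Figure D2:**
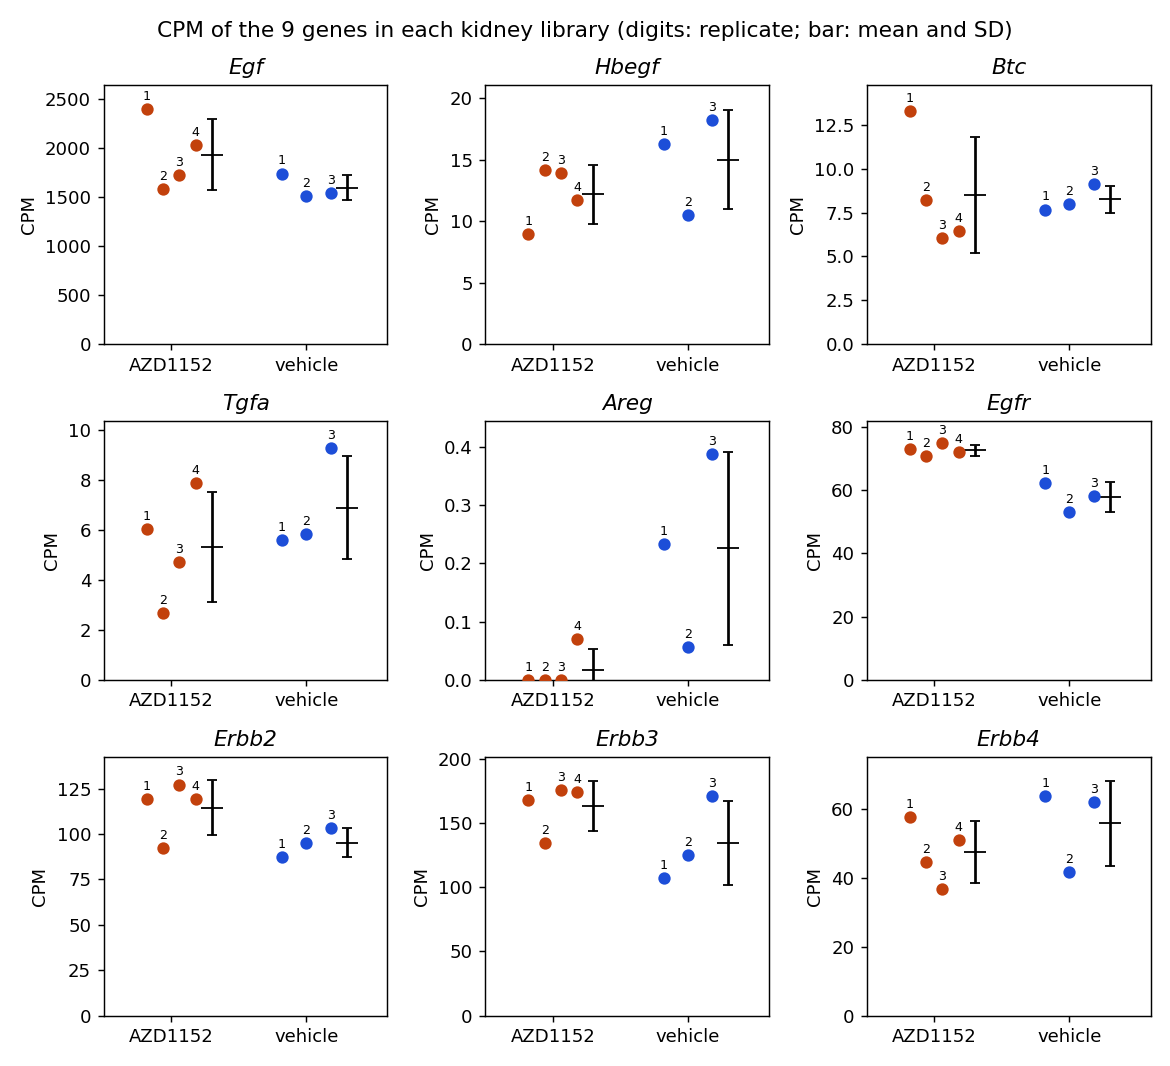
CPM of each of the 9 genes in every library, with AZD1152 kidneys on the left and vehicle kidneys on the right, digits for the replicate, and bars for the group mean and SD beside the points. Only in the Egfr panel do the points of the 2 groups separate among the 8 tested genes.

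Egf (ENSMUSG00000028017; GRCm38 chromosome 3, 129677565 to 129755316, minus strand) encodes the prepro-EGF precursor. It had 2403, 1583, 1724 and 2028 CPM in AZD1152 replicates 1 to 4, against 1741, 1507 and 1539 CPM in vehicle replicates 1 to 3. AZD1152 replicates 1 and 4 lay above every vehicle library, and replicates 2 and 3 lay within the vehicle range. Egf averaged 1934 ± 363.3 CPM in AZD1152 kidneys (SD, n = 4) and 1596 ± 126.9 CPM in vehicle kidneys (SD, n = 3). The log2 fold change was 0.28 ± 0.15 (SE; 95% interval -0.06 to 0.62) and did not pass the test (edgeR adjusted p = 0.293). The interval spans a fold of 0.958 to 1.53. Without AZD1152 replicate 1 the estimate was 0.16, and without AZD1152 replicate 2 it was 0.35. Exons of Egf overlap the antisense genes Gm42697 and 6330410L21Rik, which held at most 16 and 53 counts in any library, beside 23865 to 39768 counts of Egf.

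Since Egf is made in the thick ascending limb and distal convoluted tubule, its level was set against 14 markers of these segments in the same library. Its log2 CPM minus their mean log2 CPM was 3.59, 3.19, 3.13 and 3.24 in AZD1152 replicates 1 to 4, against 3.24, 3.03 and 3.14 in vehicle replicates 1 to 3. The groups overlapped, with means of 3.29 ± 0.207 in AZD1152 kidneys (SD, n = 4) and 3.14 ± 0.109 in vehicle kidneys (SD, n = 3). The difference of 0.15 had p = 0.4 in a two-sided exact permutation test, whose smallest possible p is 0.0286. Of the 14 markers 2 were called higher and 1 lower, beside 3.02% and 4.81% of all genes tested. The median log2 fold change of the 14 was 0.06. Umod, which encodes uromodulin of the thick ascending limb, averaged 2279 ± 668.2 CPM in AZD1152 kidneys and 2873 ± 534.7 CPM in vehicle kidneys (log2 fold change -0.33 ± 0.23, edgeR adjusted p = 0.42). Exons of Umod overlap the antisense gene Gm44588. Slc12a3, the sodium chloride cotransporter of the distal convoluted tubule, averaged 909.5 ± 142.6 CPM in AZD1152 kidneys and 851.5 ± 126.6 CPM in vehicle kidneys (log2 fold change 0.10 ± 0.15, edgeR adjusted p = 0.744).

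The members that changed in these segments were Klhl3, Pvalb and Cldn19. Klhl3, an adaptor of a ubiquitin ligase that acts on WNK kinases, rose to 68.1 ± 2.63 CPM in AZD1152 kidneys, against 47.9 ± 3.98 CPM in vehicle kidneys (log2 fold change 0.51 ± 0.08, edgeR adjusted p = 0.0113), and stayed called without any 1 library. Pvalb, the calcium-binding protein parvalbumin of the early distal convoluted tubule, rose to 70.0 ± 7.71 CPM in AZD1152 kidneys, against 36.6 ± 14.05 CPM in vehicle kidneys (log2 fold change 0.93 ± 0.22, edgeR adjusted p = 0.0381). Its call was lost without AZD1152 replicate 2, 3 or 4 or vehicle replicate 1 or 3 (edgeR adjusted p up to 0.114). Cldn19, a tight junction protein of the thick ascending limb, fell to 26.7 ± 4.94 CPM in AZD1152 kidneys, against 45.2 ± 10.9 CPM in vehicle kidneys (log2 fold change -0.76 ± 0.19, edgeR adjusted p = 0.0455). Its call held only without vehicle replicate 2 and was lost without each of the other 6 libraries (highest edgeR adjusted p = 0.181). Its exons overlap the antisense gene Gm12927.

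The less abundant ligands were not called. Hbegf (ENSMUSG00000024486; chromosome 18, 36504927 to 36515805, minus strand) encodes heparin-binding EGF-like growth factor, whose membrane-bound form is also the diphtheria toxin receptor in humans. It had 8.94, 14.1, 13.9 and 11.7 CPM in AZD1152 replicates 1 to 4, against 16.3, 10.49 and 18.2 CPM in vehicle replicates 1 to 3. Vehicle replicate 2 lay inside the AZD1152 range and the other 2 vehicle libraries above it. The log2 fold change was -0.30 ± 0.22 (SE; 95% interval -0.79 to 0.19; edgeR adjusted p = 0.437).

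Btc (ENSMUSG00000082361; chromosome 5, 91357261 to 91402994, minus strand) encodes betacellulin, a ligand of EGFR and ERBB4. It had 13.3, 8.22, 6.06 and 6.44 CPM in AZD1152 replicates 1 to 4, against 7.68, 7.98 and 9.15 CPM in vehicle replicates 1 to 3. The AZD1152 libraries lay on both sides of the vehicle range. The log2 fold change was 0.04 ± 0.26 (SE; 95% interval -0.55 to 0.64; edgeR adjusted p = 0.941) and was -0.26 without AZD1152 replicate 1.

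Tgfa (ENSMUSG00000029999; chromosome 6, 86195223 to 86275719, plus strand) encodes transforming growth factor alpha, which shares the EGF receptor with Egf. It had 6.04, 2.65, 4.72 and 7.85 CPM in AZD1152 replicates 1 to 4, against 5.59, 5.82 and 9.26 CPM in vehicle replicates 1 to 3. AZD1152 replicate 2 was the lowest of the 7 libraries and vehicle replicate 3 the highest. The log2 fold change was -0.38 ± 0.34 (SE; 95% interval -1.14 to 0.39; edgeR adjusted p = 0.541), and the interval covers folds of 0.455 to 1.31.

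Areg (ENSMUSG00000029378; chromosome 5, 91139599 to 91148432, plus strand) encodes amphiregulin. It had 0, 0, 0 and 1 counts in AZD1152 replicates 1 to 4, against 4, 1 and 7 counts in vehicle replicates 1 to 3. A count of 0 allows up to 3 counts, or 0.166 to 0.212 CPM over the 7 libraries, and vehicle replicate 2 and all AZD1152 libraries were at or under that floor. Summed over libraries there was 1 count with AZD1152 and there were 12 counts with vehicle, a ratio per depth of 0.0716 with a 95% exact counting interval of 0.00167 to 0.484. This interval covers counting error only and not the spread between mice. The gene did not pass the filter on low counts. With no filter, it had an edgeR adjusted p of 0.148.

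Egfr was the member that differed, and it was higher with AZD1152. Egfr (ENSMUSG00000020122; chromosome 11, 16752203 to 16918158, plus strand) encodes the EGF receptor, the receptor tyrosine kinase shared by all 5 ligands. It had 73.0, 70.6, 74.7 and 71.8 CPM in AZD1152 replicates 1 to 4, against 62.1, 52.9 and 58.1 CPM in vehicle replicates 1 to 3. The groups did not overlap, and the AZD1152 libraries lay close together, between 70.6 and 74.7 CPM. Egfr averaged 72.5 ± 1.73 CPM in AZD1152 kidneys (SD, n = 4) and 57.7 ± 4.62 CPM in vehicle kidneys (SD, n = 3). It rose by a log2 fold change of 0.33 ± 0.07 (SE; 95% interval 0.17 to 0.49; edgeR adjusted p = 0.03), a fold of 1.26 with an interval of 1.12 to 1.41.

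The size of the Egfr difference was 0.27 to 0.39 on the log2 scale without any 1 library, but its call was lost in 6 of these 7 fits. It held without vehicle replicate 1 (edgeR adjusted p = 0.0472) and was lost without AZD1152 replicate 1, 2, 3 or 4 (0.0555, 0.0529, 0.073 and 0.0786) or vehicle replicate 2 or 3 (0.0593 and 0.101). With total counts in place of TMM factors, where the median over all genes moved to -0.15 on the log2 scale, Egfr had 0.18 (edgeR adjusted p = 0.171).

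Erbb2 (ENSMUSG00000062312; chromosome 11, 98412470 to 98437716, plus strand) encodes the preferred partner of the other receptors. It had 119.4, 92.3, 127.3 and 119.5 CPM in AZD1152 replicates 1 to 4, against 87.4, 95.1 and 103.4 CPM in vehicle replicates 1 to 3. AZD1152 replicate 2 lay within the vehicle range and the other 3 above it. Its estimate was 0.27 ± 0.11 on the log2 scale (SE; 95% interval 0.01 to 0.52) and did not pass the test (edgeR adjusted p = 0.189; 0.0529 without AZD1152 replicate 2). Erbb2 shares 9 exonic bases with Mien1.

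Erbb3 (ENSMUSG00000018166; chromosome 10, 128567523 to 128589652, minus strand) encodes the neuregulin receptor that couples to PI3 kinase. It had 168.0, 134.1, 175.7 and 174.5 CPM in AZD1152 replicates 1 to 4, against 106.9, 125.2 and 170.7 CPM in vehicle replicates 1 to 3. Vehicle replicate 3 lay inside the AZD1152 range and the other 2 vehicle libraries below it. Its log2 fold change was 0.28 ± 0.16 (SE; 95% interval -0.08 to 0.64; edgeR adjusted p = 0.321).

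Erbb4 (ENSMUSG00000062209; chromosome 1, 68032186 to 69108059, minus strand) encodes a receptor of neuregulins and betacellulin. It had 57.6, 44.5, 36.6 and 50.9 CPM in AZD1152 replicates 1 to 4, against 63.6, 41.7 and 62.0 CPM in vehicle replicates 1 to 3. Vehicle replicate 2 lay inside the AZD1152 range, and the other 2 vehicle libraries were the highest of the 7. The log2 fold change was -0.23 ± 0.18 (SE; 95% interval -0.64 to 0.17; edgeR adjusted p = 0.47), the only negative estimate among the receptors in this fit.

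**Figure D3:**
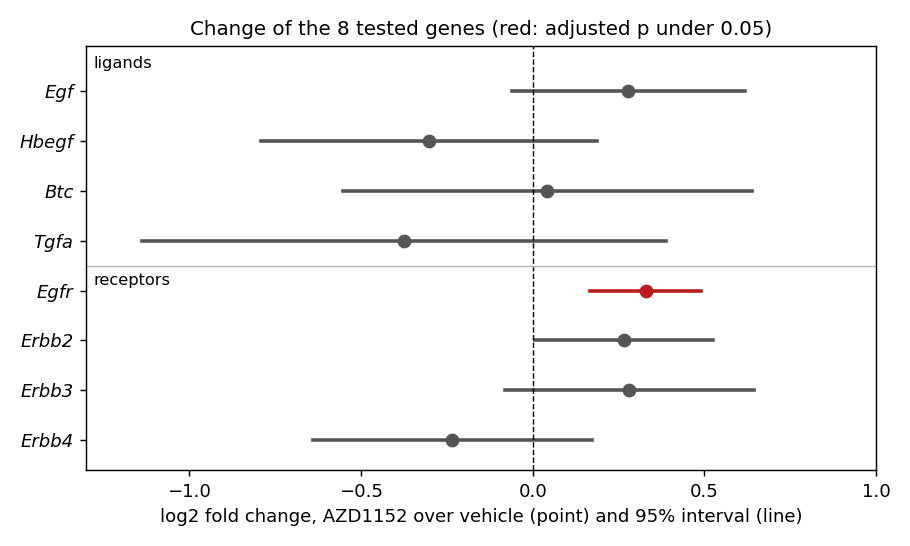
Log2 fold change of AZD1152 over vehicle for the 8 tested genes (points) with 95% intervals (lines), ligands above and receptors below. The interval of Egfr (0.17 to 0.49) is the one drawn in red, and those of Tgfa and Btc are the widest.

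Libraries differed in more than the family. Totals ran from 14692113 to 17036862 counts, and mitochondrial transcripts took 9.41% to 11.6% of the counts in AZD1152 kidneys and 8.03% to 9.002% in vehicle kidneys, with AZD1152 replicate 2 highest. That library was the lowest of its group for 5 of the 8 tested members, and vehicle replicate 3 was the highest of its group for 5 of 8. Over all genes tested, 3.02% were called higher and 4.81% lower. Markers of the proximal tubule were higher with AZD1152 together with Egfr, as 4 of 9 were called higher and 0 lower. The summed levels of these 9 were 12110 to 15127 CPM in AZD1152 kidneys and 7960 to 10328 CPM in vehicle kidneys. Markers of macrophages were called lower for 7 of 10 genes (279.2 to 457.7 CPM in AZD1152 kidneys and 630.1 to 762.1 CPM in vehicle kidneys) and those of T cells for 5 of 8 (45.4 to 66.9 CPM in AZD1152 kidneys and 87.2 to 136.7 CPM in vehicle kidneys). Of 7 stromal markers 2 were called lower, with 214.3 to 365.3 CPM in AZD1152 kidneys and 429.5 to 598.0 CPM in vehicle kidneys. Of 8 tested collecting duct markers 2 were called higher, and 0 of 5 podocyte markers were called. The 6 markers of the renal pelvis lining summed to 1.46 to 2.78 CPM in AZD1152 kidneys and 3.60 to 9.37 CPM in vehicle kidneys. Only 2 of these 6 had enough counts to be tested, and 0 were called. The part of these markers and of the library differences in the Egfr result was not tested.

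**Figure D4:**
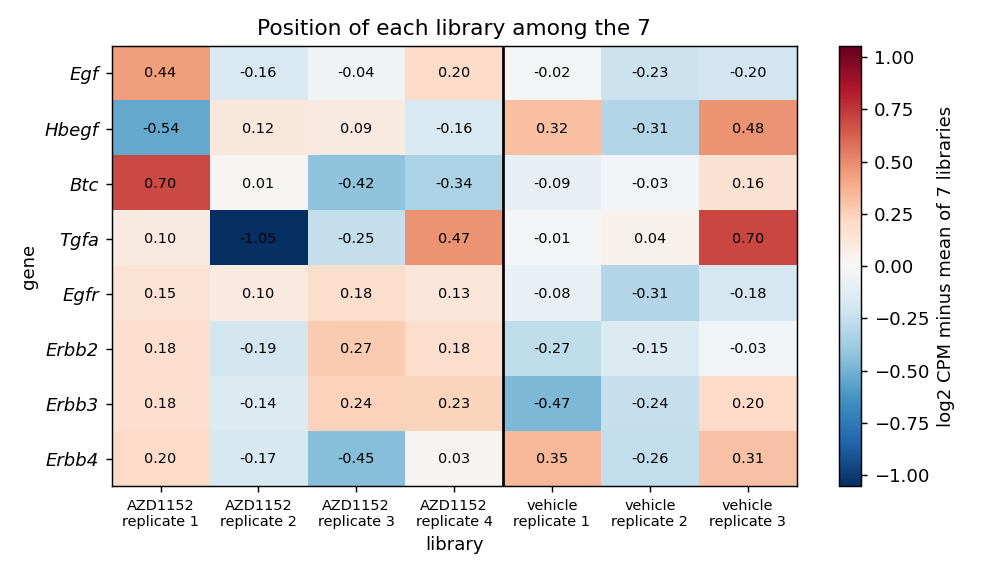
Log2 CPM of the 8 tested genes in each library minus the mean of the 7 libraries, AZD1152 left and vehicle right of the black line. The Egfr row is positive in the 4 AZD1152 libraries and negative in the 3 vehicle libraries, and the lowest value is that of Tgfa in AZD1152 replicate 2.

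The genes whose log2 CPM ran most like that of Egf over the 7 libraries were Pnpla7, Fads6 and Cpt2, among 11026 protein-coding genes that averaged 5 CPM or more. Their Pearson r with Egf was 0.993, 0.990 and 0.980, over libraries of both groups that share the group difference and the scaling. They had log2 fold changes of 0.24 ± 0.13, 0.30 ± 0.15 and 0.31 ± 0.14 (SE), and none was called (edgeR adjusted p = 0.277, 0.24 and 0.212). These values lie near that of Egf because the genes were picked for their likeness to it. The highest r of so many genes over 7 libraries is also high by the search itself.

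Of 75 tested genes of the wider pathway, in 6 lists, 3 were called, beside 7.83% of all genes tested. Of 6 further ligand genes, 2 had enough counts to be tested, and 0 were called in edgeR. Nrg1, which encodes neuregulin 1, a ligand of ERBB3 and ERBB4, averaged 20.7 ± 6.46 CPM in AZD1152 kidneys and 15.8 ± 1.44 CPM in vehicle kidneys (log2 fold change 0.39 ± 0.21, edgeR adjusted p = 0.297), and Nrg4 had an estimate of 0.06 ± 0.36 (edgeR adjusted p = 0.938). Neither had an unadjusted p under 0.05. Exons of Nrg1 overlap Gm26578, and those of Nrg4 overlap Fbxo22. Ereg, Epgn and Nrg2 had too few counts to be tested, and Nrg3 had 0 counts in all 7 libraries.

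Among 8 genes that release ligands from the membrane, 1 was called, beside 7.83% of all genes tested. Groups did not overlap in CPM for 2 of the 8, beside 22.8% of all genes. The called gene was Rhbdf2. It encodes iRhom2, which carries the sheddase ADAM17 to the cell surface and is abundant in macrophages. Rhbdf2 had 24.7, 16.6, 22.3 and 17.5 CPM in AZD1152 replicates 1 to 4, against 30.1, 30.6 and 31.6 CPM in vehicle replicates 1 to 3. Every AZD1152 library was below every vehicle library, and Rhbdf2 fell (log2 fold change -0.60 ± 0.14; edgeR adjusted p = 0.0384). Macrophage markers moved the same way, with 7 of 10 called lower, beside 4.81% of all genes tested. Their median was -0.95 on the log2 scale, and their part in the Rhbdf2 result was not tested. The Rhbdf2 call was lost without AZD1152 replicate 2, 3 or 4 or any vehicle library (highest edgeR adjusted p = 0.129). The protease genes Adam10 and Rhbdl2 had log2 fold changes of -0.19 ± 0.07 and -0.53 ± 0.31 (edgeR adjusted p = 0.113 and 0.336).

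Of 25 adaptor and kinase genes below the receptors, 0 were called in edgeR, with 7 at an unadjusted p under 0.05, beside 24.8% of all genes, and a median log2 fold change of 6.81e-04. Those with the smallest p were Eps8, a substrate of the EGF receptor (0.34 ± 0.09), Gab1, a docking adaptor (0.31 ± 0.09), and Pik3ca, a catalytic subunit of PI3 kinase (0.25 ± 0.07). Their edgeR adjusted p-values were 0.0539, 0.0585 and 0.0622. These 3 were higher with AZD1152, but only 13 of the 25 genes had a positive estimate. Exons of Gab1 overlap the antisense gene Gm31105.

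Of 21 genes that restrain the receptors or ERK, 1 was called, which is 4.76%, beside 7.83% of all genes tested. At an unadjusted p under 0.05, edgeR gave 5 of the 21, beside 24.8% of all genes. Groups did not overlap in CPM for 4 of the 21, beside 22.8%, so these counts are not read as particular to the list. The called gene was Cbl, which encodes a ubiquitin ligase that directs activated EGF receptors to degradation. Cbl had 60.1, 59.6, 64.4 and 59.2 CPM in AZD1152 replicates 1 to 4, against 89.1, 74.3 and 82.0 CPM in vehicle replicates 1 to 3. The groups did not overlap, and Cbl fell (log2 fold change -0.43 ± 0.08; edgeR adjusted p = 0.0183). Its call was lost without AZD1152 replicate 4 or vehicle replicate 1 or 3 (highest edgeR adjusted p = 0.0689). Ptpn1, a phosphatase of receptor kinases, and Rasa1, a GTPase activator of Ras, had log2 fold changes of -0.46 ± 0.15 and -0.19 ± 0.07 (edgeR adjusted p = 0.0975 and 0.135). The median of the 21 was -0.12.

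Of 12 genes known to be induced by growth factors through ERK, 0 were called in edgeR, with 3 at an unadjusted p under 0.05, beside the same 24.8%, and a median log2 fold change of -0.28. The 3 were Etv5, Epha2 and Fos. Etv5, an ETS transcription factor, averaged 62.8 ± 11.03 CPM in AZD1152 kidneys and 46.8 ± 7.91 CPM in vehicle kidneys (log2 fold change 0.42 ± 0.15, edgeR adjusted p = 0.127). Epha2, an ephrin receptor, and Fos, a subunit of AP-1, had -0.57 ± 0.22 and -1.23 ± 0.53 (edgeR adjusted p = 0.149 and 0.19). In all 12 genes the groups overlapped in CPM, while they did not overlap for 22.8% of all genes tested.

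Of 7 tested magnesium transport genes 1 was called, beside 7.83% of all genes tested. At an unadjusted p under 0.05, edgeR gave 5 of the 7, beside 24.8% of all genes. Groups did not overlap in CPM for 4 of the 7, beside 22.8%. The called gene was Trpm6, which encodes the magnesium channel of the distal convoluted tubule, whose activity EGF is known to raise. Trpm6 had 15.2, 14.3, 18.9 and 21.3 CPM in AZD1152 replicates 1 to 4, against 11.2, 11.98 and 10.7 CPM in vehicle replicates 1 to 3. The groups did not overlap, and Trpm6 rose (log2 fold change 0.63 ± 0.15; edgeR adjusted p = 0.0424). Its call was lost with total counts in place of TMM (log2 fold change 0.48, edgeR adjusted p = 0.0894). It was also lost without AZD1152 replicate 3 or 4 or any vehicle library (highest edgeR adjusted p = 0.159). Among the 14 segment markers 2 were called higher, Klhl3 and Pvalb, and 1 lower, Cldn19. The part of these segments in the Trpm6 result was not tested. Cnnm4 and Fxyd2, a magnesium transporter gene and the gamma subunit of the sodium pump, had log2 fold changes of 0.38 ± 0.14 and 0.29 ± 0.11 (edgeR adjusted p = 0.124 and 0.141).

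**Figure D5:**
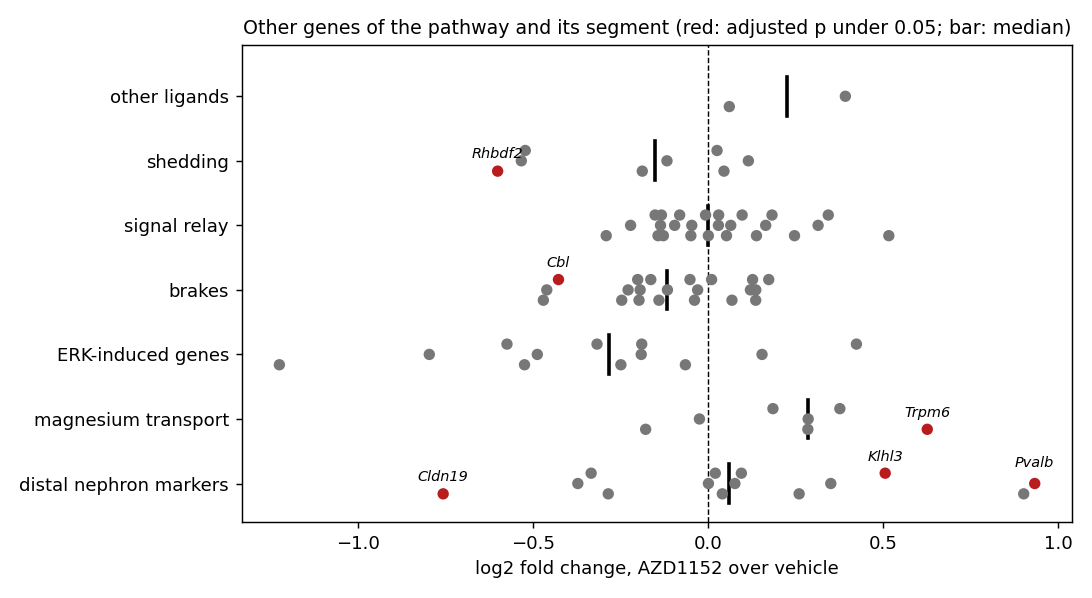
Log2 fold change of AZD1152 over vehicle for each tested gene of 7 lists around the EGF family (points), with the median of each list as a black bar. Genes with an adjusted p under 0.05 are red and named, and they are Rhbdf2, Cbl, Trpm6, Klhl3, Pvalb and Cldn19.

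Markers of tubular injury were called lower for 7 of 13 genes and higher for 0, beside 4.81% and 3.02% of all genes tested. The ligands Hbegf and Tgfa, which are known from injured epithelium, were not called. Their 95% intervals were -0.79 to 0.19 and -1.14 to 0.39 on the log2 scale, so a fall in either is not excluded. Areg, a further ligand of this kind, had 1 count with AZD1152 and 12 with vehicle, too few to be tested. Vcam1, an adhesion molecule, and Cd44, a receptor of hyaluronan that can present HB-EGF, fell by log2 fold changes of -1.64 ± 0.19 and -1.50 ± 0.20 (edgeR adjusted p = 0.009 and 0.00951). Leukocytes and stromal cells make Vcam1 and Cd44 as well, and markers of those cells were lower too. The part of those cells in the Vcam1 and Cd44 results was not tested. Cp, Krt20, Spp1, Lcn2 and Havcr1 were also called lower (log2 fold changes of -1.14, -4.34, -0.85, -2.41 and -0.998). Their edgeR adjusted p-values were 0.0175, 0.026, 0.0304, 0.0392 and 0.0458. Among these genes the groups overlapped in CPM for Lcn2, and Krt20 was at most 1.28 CPM in AZD1152 kidneys. The list had a median of -0.87, and the ligands Hbegf, Btc and Tgfa had -0.30, 0.04 and -0.38.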

How the data were processed

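Kidney RNA of 7 mice was measured by poly(A)-selected RNA sequencing with a TruSeq kit, per the labels' protocols. The authors deposited 1 table of read counts, not normalized. Per the submitters' processing notes, HISAT2 2.0.5, GRCm38, CASAVA, DESeq2 and DESeq were named. How reads were counted, with or without strand, is not given in the sources used here, and antisense partners cannot be told apart.

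Groups came from the sample titles. Gene names, coordinates and exon lengths came from GENCODE mouse release 21 (53360 of 53465 genes matched, and 170 of 170 list genes, 1 by a synonym). The quasi-likelihood test of edgeR 4.0.16 (R 4.3.3) was run on group alone, after filterByExpr and TMM scaling. Standard errors are the log2 fold change over the square root of F, and log2 CPM per library was taken with a prior count of 2. The fit was tested on simulated data. The biological coefficient of variation was 0.168. All 7 columns were used. All 21 library pairs differed beyond sampling noise (chi-square per degree of freedom 10.8 or more). Floors and counting intervals cover counting error only, since PCR reads are not independent molecules.

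The members and the 15 other gene lists were chosen with earlier results of these data known. Named were all members, the 3 genes with the smallest p in each pathway list, Umod, Slc12a3, Trpm6 and the 3 genes most like Egf. Marker lists are given as counts. Named from them were the called distal nephron genes Klhl3, Pvalb and Cldn19. The called injury genes Vcam1, Cd44, Cp, Krt20, Spp1, Lcn2 and Havcr1 were named too. Slc12a1, Cldn16, Kcnj1 and Calb1 were named after the values were seen, and Cd3d and Cd3g by Dixon's criterion. Alternatives were RLE, upper-quartile and total-count scaling, no filter and a stricter filter, DESeq2 1.42.0, limma-voom 3.58.1, a replicate block and leaving out each library.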

Additional observations from a re-analysis of the deposited data

Results flagged for a closer look

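In the group of 4 AZD1152 libraries, 5 of 55 values examined had 1 library far from the other 3 by Dixon's criterion, where chance gives about 1 in 20. Areg was at 0.0708 CPM in AZD1152 replicate 4, from 1 count, and at 0 in the others. Cnnm4 was high in AZD1152 replicate 2 (27.7 CPM) and Cd44 in AZD1152 replicate 3 (16.3 CPM). The T cell genes Cd3d and Cd3g were low in AZD1152 replicate 2 (1.53 and 3.12 CPM).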

How the results depend on the processing

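Each of the 8 tested members kept its direction in all 15 alternatives, except Btc, which did so in 11 (log2 fold change -0.26 to 0.17). None but Egfr was called in any. Egfr was called in 7 of 15, with log2 fold changes of 0.18 to 0.39 and adjusted p = 0.00488 (DESeq2) to 0.171. With total counts alone, 0 members, 233 higher and 1480 lower genes were called, against 476 and 759 with TMM, so 13.6% of the calls were higher against 38.5%. DESeq2 called 954 higher and 1138 lower genes. The sample titles do not state a pairing of mice by replicate number. Same-numbered libraries had correlations of -0.288, 0.209 and -0.119 after group means were removed. AZD1152 replicates 1, 2 and 3 were closest to vehicle replicates 3, 2 and 1. So few values can neither show nor exclude a pairing. A replicate block gave 0 called members (Egfr adjusted p = 0.0887), 63 higher and 146 lower genes. Leaving out each library in turn gave 0 to 1 members, 60 to 475 higher and 163 to 619 lower genes. The lowest counts were without vehicle replicate 3. Egf against its segment markers differed by 0.05 to 0.21 in these fits, by 0.15 with a prior count of 0.5 and by 0.22 with the median. Areg lies at the depth limit.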

Other observations

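After the values were seen, Egf was set against each of the 14 segment markers alone. The ratio of Egf to Umod in CPM was 0.823, 1.02, 0.919 and 0.732 in AZD1152 replicates 1 to 4, against 0.577, 0.660 and 0.463 in vehicle replicates 1 to 3. Every AZD1152 library had the higher ratio, with means of 0.874 ± 0.124 in AZD1152 kidneys (SD, n = 4) and 0.567 ± 0.0989 in vehicle kidneys (SD, n = 3). The log2 difference was 0.63, with p = 0.0286 in a two-sided exact permutation test, the smallest that it can give, and 0.1 after Benjamini-Hochberg adjustment over the 14 markers. The groups also did not overlap, with higher ratios under AZD1152, for Slc12a1, Cldn16, Cldn19 and Kcnj1, genes of the thick ascending limb (log2 differences of 0.58, 0.61, 1.01 and 0.26). For the distal convoluted tubule genes Pvalb, Calb1 and Slc12a3 the groups overlapped, with log2 differences of -0.73, -0.74 and 0.17.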
